A study of Rattus norvegicus with 16 samples.

Results

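The comparison described here set hippocampi of sham-operated rats against hippocampi of untouched rats, both of them controls of the series. It used 5 of the 16 gene expression arrays of the series, 3 titled Naïve and 2 titled Sham, each carrying the labelled RNA of the whole hippocampus of 1 rat. All were adult male Sprague-Dawley rats. Naïve rats had neither injury nor treatment. Sham rats were anaesthetised with isoflurane and prepared for parasagittal fluid-percussion injury, a model in which a fluid pulse strikes the exposed dura, but the pulse was not given. Every rat was anaesthetised with isoflurane when the brain was removed, 24 h after injury or its equivalent. For Naïve rats the methods describe no earlier anaesthesia. The other 11 arrays came from injured rats (TBI), alone or with PMI-006, JM6 or estradiol. Those rats were likewise anaesthetised with isoflurane and prepared for the injury, and they did receive the pulse. Groups of 3 rats are given in the methods. The third Sham rat was not analysed here.

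Sham surgery exposes the animal to a volatile anaesthetic, to a scalp incision and craniotomy, and to handling. Isoflurane strengthens the action of GABA at its inhibitory ion channels and opens tandem-pore potassium channels, while surgery raises circulating glucocorticoids, hormones that switch on genes such as Fkbp5 and Tsc22d3 in neurons and glia. Gfap, the filament protein of astrocytes, rises where astrocytes react to injury. The hippocampus lies against the choroid plexus of the lateral ventricle, the tissue that secretes cerebrospinal fluid and makes transthyretin (Ttr), so Ttr tells how much plexus came along with a dissection.

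The arrays were of similar reach. Between 16282 and 17829 probes were well above background on the Naïve arrays and 17187 and 18245 on the Sham arrays. Levels correlated at 0.976 to 0.978 between Naïve arrays across probes, at 0.977 between the Sham arrays and at 0.960 to 0.969 between the groups, and no probe values were shared between arrays. All 5 were scanned in the same session. Slide 1 held Naïve 1, Naïve 2 and both Sham arrays, and slide 2 held Naïve 3 with the TBI arrays. The sample numbers in the names of the deposited scanner files fall into 2 series, whose meaning is not stated. The 3 Naïve samples carry the numbers 1 to 3 and the TBI samples 4 to 6, whereas the Sham samples carry 237 and 238, so that among these 5 arrays the surgery and the number series cannot be told apart. Each series holds 8 of the 16 arrays, and only the TBI+PMI-006 group has both kinds, with numbers 7 and 8 in series 1 and number 233 in series 2. Either of 2 kits was used to amplify the RNA, and which rat got which is not stated.

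Sham and Naïve hippocampi differed at 1842 of the 22827 probes tested, or 8.07%, at a Benjamini-Hochberg adjusted p under 0.05 in limma. Of these, 1496 were higher in Sham rats (6.55% of all tested) and 346 lower (1.52%). The share that was higher, 81.2%, depended on the scaling. It was 57.1% after quantile normalization (1313 probes or 5.75% called, 3.29% higher and 2.47% lower), 61.1% when the 75th percentile was taken over all probes, 55.9% in the authors' matrix and 49.0% after a trend with probe GC content was removed. The change exceeded 2-fold at 1336 called probes and 4-fold at 284, against a median standard error of 0.28 on the log2 scale. At all 1842 the 2 groups did not overlap, as was the case at 39.7% of all probes tested. Counted by genes, each represented by its brightest probe, 1025 of 13913 differed (7.37%), 827 higher (5.94%) and 198 lower (1.42%), and the median difference over all genes was 0.08 on the log2 scale. The spread behind these tests is that of all 16 arrays. With the 5 arrays alone limma called 303 probes. The methods' t-test on the same 5 arrays called 0 after adjustment, where 3695 probes had an unadjusted p under 0.05, and 3603 of them more than a 1.2-fold difference.

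A few further values bear on every result that follows. Normexp background correction with an offset of 50, in the same model of all 16 arrays, left 14 probes called. Of the 30 probes named below for the size of their change, 1 kept its call there and 0 changed sign. Dividing each array by its E1A controls, instead of by its 75th percentile, left 348 probes called. On the Naïve, Sham and TBI arrays without the drug groups limma called 325 probes, and 15 of all tested with the slide as a fixed block. When only the 2 Naïve and 2 Sham arrays of slide 1 were compared, 6 were called. With the slide as a random block on all 16 arrays 1881 were called. With the number series as a block, a fit that tells the series from the surgery only through the TBI+PMI-006 arrays, 2 probes were called (0.00876%) and 3222 had an unadjusted p under 0.05. Those 2 lay in Cacfd1, not well above background in either group, and in Spock2, whose difference was -0.64 (adjusted p = 0.818) without the block. Of the other genes named in this text, 0 were called with that block.

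**Figure D1:**
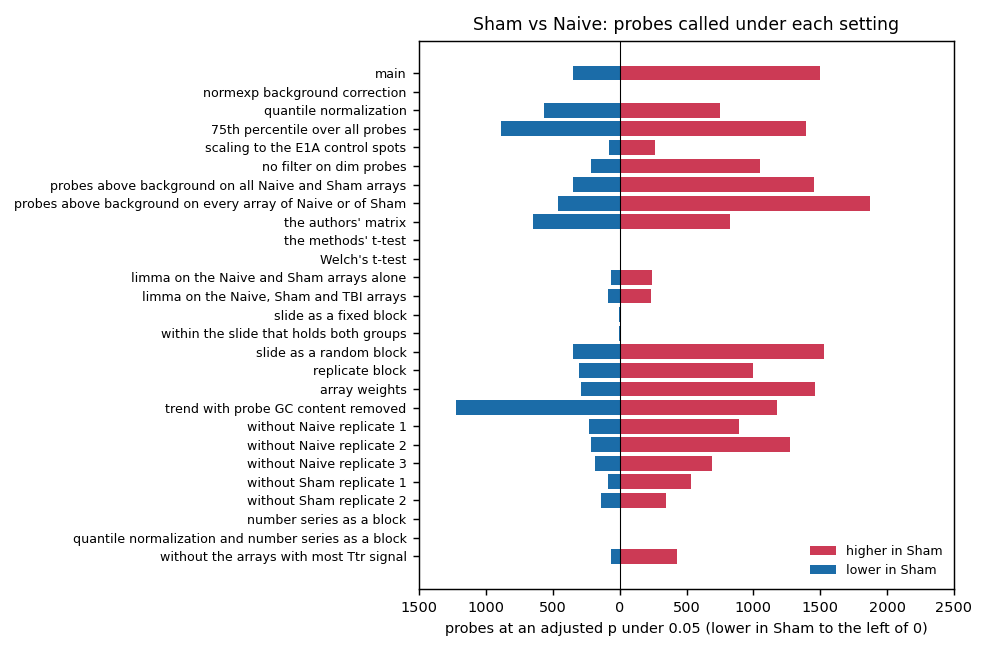
Probes called in Sham vs. Naïve rats under each processing setting (horizontal axis, number of probes at an adjusted p under 0.05, with those lower in Sham rats drawn to the left of 0 in blue and those higher to the right in red). The bar of the main setting spans 346 to 1496, and the bars of the slide as a fixed block, of the number series as a block and of both t-tests are too short to be seen or 0.

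The largest difference was at probes that resemble the message of Rpl19, a protein of the large ribosomal subunit. They are shown first because their sequences are alike and their levels moved in opposite directions. Over the 46 to 56 bases that could be aligned, the others matched the Rpl19 probe at 81.8% to 93.8%. Below are the same 30 bases of 6 such probes, as the array design in the scanner files prints them, 5′ to 3′, with capitals for bases that differ from the Rpl19 probe.
Rpl19, probe A_64_P029701: cctcacatggatcagtcattaaaataaaac
Rpl19-ps25, probes A_64_P084268 and A_64_P094980: cctcTcGtggatcagCcattaaaataaaac
A_64_P118997: cctcacGtggatcagAcattaaaataaaac
A_64_P126595: cctcacGtggatcagtcattaaaataaaac
A_64_P151473: cctcacGtggatcaAtcattaaaataaaac
Counted from 1 at the left end of these windows, A7G occurs in 5 of the 5 probes set against Rpl19. Rpl19-ps25 adds A5T and T16C, A_64_P118997 adds T16A and A_64_P151473 adds G15A. On rn4 the Rpl19 probe lies at chr10:86792067-86792126 on the plus strand, and the others at chrX:93594348-93594407 and chrX:93594337-93594396 (minus), chr2:211322674-211322733 (plus), chr6:145823363-145823422 (plus) and chr5:17190300-17190359 (minus).

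At the Rpl19-ps25 probe A_64_P084268 the log2 level was -2.69, -3.0 and -2.36 in Naïve rats and 3.55 and 4.11 in Sham rats. The groups lay far apart, by 6.52 (SE 1.23, adjusted p = 0.00948), or 91.5-fold. The neighbouring probe A_64_P094980 read -4.76, -5.48 and -4.28 against 2.47 and 2.97, a difference of 7.56 (SE 1.39, adjusted p = 0.00857). A_64_P151473 was higher by 5.26 (adjusted p = 0.00685), and A_64_P126595 by 6.0 (adjusted p = 0.0274) with Sham 2 dropped from its fit. The Rpl19 probe itself, A_64_P029701, read 5.45, 5.17 and 5.30 in Naïve rats and 2.48 and 3.22 in Sham rats, which is lower by 2.46 (log2 difference -2.46, adjusted p = 0.0376), and A_64_P118997 differed by -0.93 (adjusted p = 0.0438). Another probe of Rpl19, A_64_P128938, read 5.12, 5.09 and 4.86 against 4.56 and 5.12, with overlapping groups and a difference of -0.18 (adjusted p = 0.711). So the Rpl19-like probes did not move together. Without Sham 2 the Rpl19-ps25 probes and A_64_P151473 lost their calls, at differences of 5.08 to 7.84 over all arrays left out in turn, and the calls of the Rpl19 probe (-2.83 to -2.08), of A_64_P118997 (-1.13 to -0.73) and of A_64_P126595 (5.82 to 6.3) were lost in every leave-out that could be fitted. On all 16 arrays the level of A_64_P084268 followed the number series: it was -1.92 and -1.83 on the TBI+PMI-006 arrays of series 1 and 3.86 on the array of series 2. With the series as a block its difference was 0.78 (adjusted p = 0.48). On the 5 Naïve and Sham arrays alone, without that spread between series, its adjusted p in limma was 0.00671.

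The number series was then followed across all probes. At 213 probes (0.933%) the 8 arrays of one series lay apart from the 8 of the other. Such a probe also separates Sham from Naïve rats, because these lie in different series. Of the 213, 123 were called in Sham vs. Naïve rats, beside 8.07% of all probes tested. That overlap is partly built in and cannot tell the series from the surgery. Vegfb and Tceal3, named further on, are among the genes whose arrays separated in this way. Within the TBI+PMI-006 group, where no surgery differed, the array of series 2 was set against the mean of those of series 1 after quantile normalization. It was higher at 1076 of 1495 probes that were higher in Sham rats (72.0%) and lower at 68.0% of 344 that were lower, beside 50.4% and 49.6% of all 22779 probes measured there. The median of that difference was 0.23 for the first set and -0.15 for the second. On the scale of the 75th percentile, where the median over all probes was -0.28, it was -0.07 and -0.43, with 42.1% of the first set higher, beside 19.5% of all probes, and 90.7% of the second lower, beside 80.5%. On that same scale the medians of Sham minus Naïve were 1.23 and -1.36. What part the series has in the differences was not tested beyond the block, which rests on 1 array.

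**Figure D2:**
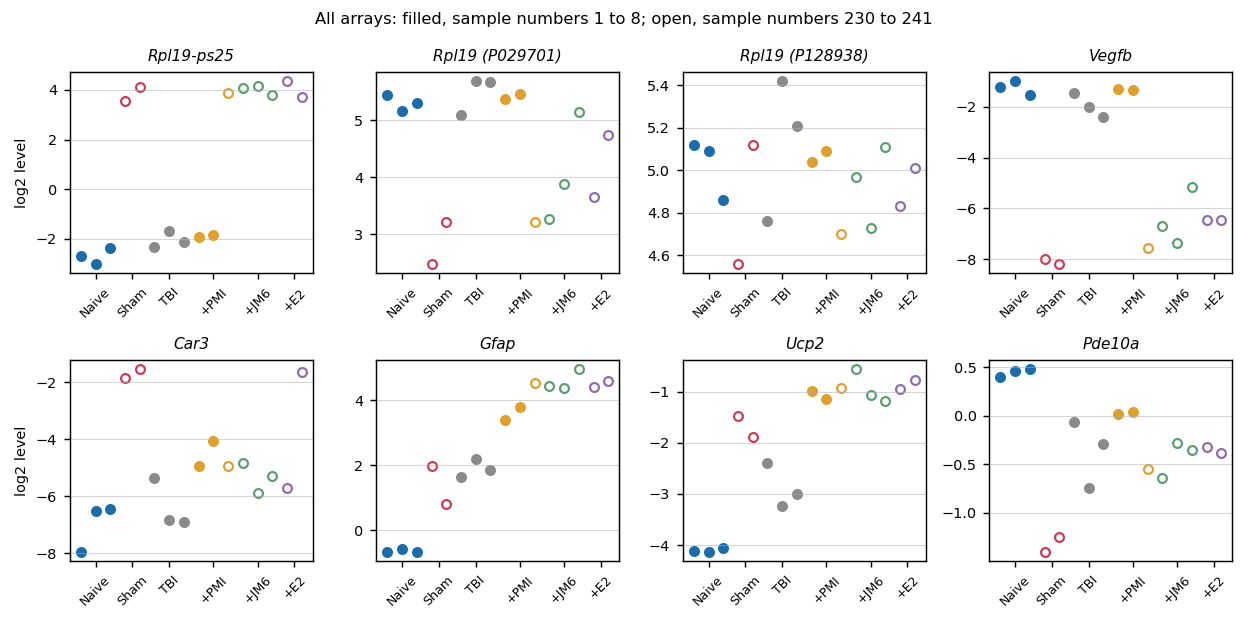
Log2 level (vertical axis, 0 is the 75th percentile of the array's probes above background) of 8 probes on all 16 arrays by group, with filled points for sample numbers 1 to 8 and open points for 230 and above. Rpl19-ps25 and Vegfb follow the fill within the TBI+PMI-006 group, whereas for Ucp2 and Car3 the open point of that group lies within or next to the filled ones.

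The next genes are the 12 largest rises among 614 genes higher in Sham rats and measured well above background on all 5 arrays, Rpl19-ps25 being the first. Canx, a lectin chaperone of the endoplasmic reticulum (probe at chr10:35862130-35862189), had log2 levels of -4.73, -4.92 and -4.71 in Naïve rats and -1.89 and -1.67 in Sham rats. The groups were tight and far apart, and the rise was 3.01 (SE 0.33, adjusted p = 0.00185), or 8.03-fold. Ucp2, an uncoupling protein of the mitochondrial inner membrane (chr1:157927128-157927571), read -4.11, -4.13 and -4.06 against -1.47 and -1.88, a 5.38-fold rise (SE 0.25 on the log2 scale, adjusted p = 0.00185). Mrps10, a protein of the small mitochondrial ribosomal subunit (chr9:9077319-9077378), read -3.64, -3.35 and -3.71 against -1.13 and -0.89. Its 5.89-fold rise (adjusted p = 0.004) was also called with the slide as a block, where the log2 difference was 2.49 (adjusted p = 0.0314). Injured rats without drug had the anaesthesia and preparation of Sham rats but were numbered in the series of Naïve rats. Their mean log2 levels were -4.39 for Canx, -2.88 for Ucp2 and -3.09 for Mrps10.

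Slc39a12, a zinc importer, read -4.98, -4.70 and -4.76 in Naïve rats and -1.81 and -2.14 in Sham rats, 7.13-fold higher (adjusted p = 0.0215). Ppp2r2c, a regulatory subunit of protein phosphatase 2A in brain, read -5.06, -5.71 and -5.57 against -2.94 and -2.40, 6.85-fold higher (adjusted p = 0.00645). In both the Sham arrays were the highest of the 5 by more than 1 log2 unit. Lrrc10b rose 6.68-fold (adjusted p = 0.00994), the transcription elongation factor-like gene Tceal3 5.85-fold (adjusted p = 0.0151), RT1-N2, a class I molecule of the rat histocompatibility complex, 5.37-fold (adjusted p = 0.0116), and Zbtb18, a zinc finger repressor in neurons, 5.32-fold (adjusted p = 0.0475). RT1-N2 rose at its other probe also, by 2.88 on the log2 scale.

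In contrast, the rises of St14 and Cutc came mostly from 1 array. St14, a membrane-bound serine protease, read -4.45, -3.32 and -4.71 in Naïve rats and 0.45 and -3.14 in Sham rats, and Cutc, which is linked to copper handling, -2.63, -2.51 and -2.55 against 2.17 and -1.85. Sham 1 was far above the rest in both. Sham 2 was barely above the highest Naïve array for St14 and clearly above the 3 close Naïve values for Cutc. Without Sham 1 the difference of St14 fell from 2.81 to 1.01 (adjusted p = 0.335) and that of Cutc from 2.73 to 0.71 (adjusted p = 0.116). Canx, Ucp2 and Mrps10 were called whichever of the 5 arrays was left out. Rpl19-ps25 (6.23 to 6.80), Ppp2r2c (2.51 to 3.05), Lrrc10b (2.49 to 2.99) and RT1-N2 (1.77 to 3.08) lost the call only without Sham 2, and Tceal3 (2.26 to 2.93) without either Sham array. The calls of Slc39a12 (2.67 to 3.0) and Zbtb18 (1.87 to 2.95) held only without Naïve 2.

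Among 146 genes lower in Sham rats and well above background on all 5 arrays, Adcy9, an adenylyl cyclase that makes cyclic AMP, fell most. Its log2 level was -1.12, -1.60 and -1.46 in Naïve rats and -5.01 and -4.00 in Sham rats. The groups were separated by more than 2 log2 units, and the difference was -3.11 (SE 0.52, adjusted p = 0.00562). Tnik, a kinase of the postsynaptic density (chr2:115989705-115992018), read -2.05, -1.76 and -2.35 against -4.62 and -4.16, a difference of -2.34 (adjusted p = 0.00367). Zap70, the kinase of the T cell receptor (chr9:35714961-35715020), read -2.10, -1.95 and -1.91 against -3.54 and -4.17, a difference of -1.87 (adjusted p = 0.0023). Mean levels in TBI rats were -2.28 for Adcy9, -3.16 for Tnik and -2.34 for Zap70. Tnik and Zap70 were called whichever array was left out, and Adcy9 (-3.62 to -2.61) lost its call only without Sham 1.

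The other genes with the largest falls were single genes of different kinds. Banp, a nuclear DNA-binding protein, differed by -2.60 (adjusted p = 0.011), and Dnmt3a, which writes new DNA methylation, by -2.50 (adjusted p = 0.0228). Mef2c, an activity-dependent transcription factor of neurons, read 0.60, -0.14 and 0.18 in Naïve rats and -1.26 and -2.45 in Sham rats, a difference of -2.07 (adjusted p = 0.0296). When single arrays were left out, the differences of these 3 genes ranged from -3.32 to -1.47. Tnnt2, a troponin of the heart, differed by -2.40 (adjusted p = 0.0319), Tpbg, a membrane glycoprotein that dampens Wnt signalling, by -2.30 (adjusted p = 0.0209), and Col5a1, a fibrillar collagen, by -2.12 (adjusted p = 0.0125). Tpd52l1, of the D52 family, differed by -2.21 and -2.05 at 2 probes (adjusted p = 0.0251 and 0.0412) and by -1.69 at another (adjusted p = 0.054). C11h21orf91 differed by -1.99 (adjusted p = 0.0263), while a second probe of that gene gave -1.06 and was not called. Most of these calls were close to the threshold: Banp lost its call without Sham 2 (-2.29) and Col5a1 without either Sham array, and Dnmt3a, Mef2c, Tnnt2, Tpbg, Tpd52l1 and C11h21orf91 lost theirs without each of 3 or 4 arrays.

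**Figure D3:**
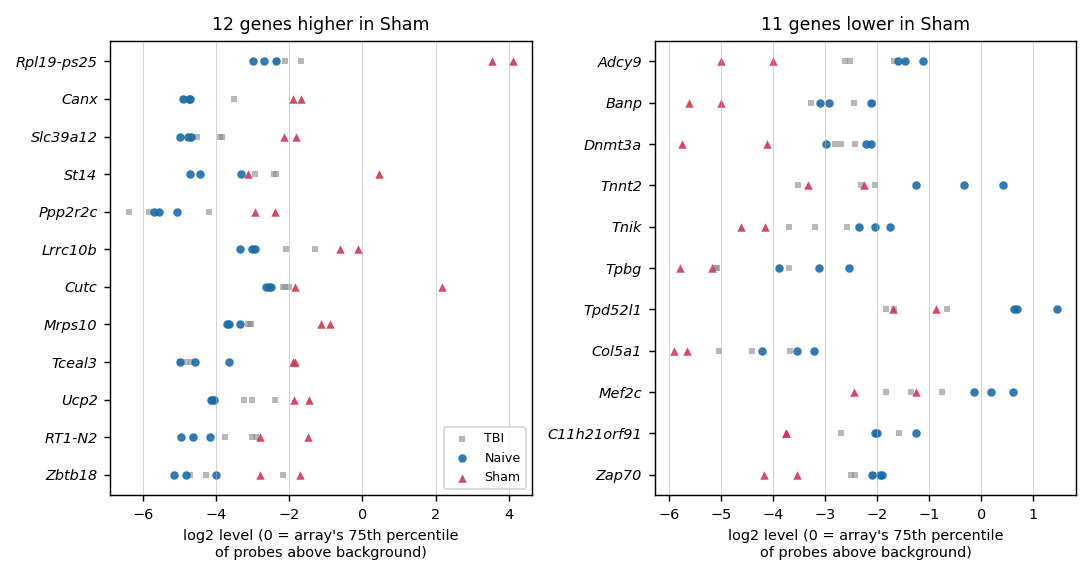
Log2 level (horizontal axis, 0 is the 75th percentile of the array's probes above background) of the 12 most raised genes of Sham rats and of 11 that were most lowered, with a circle for each of 3 Naïve, a triangle for each of 2 Sham and a small square for each of 3 TBI arrays. Canx and Ucp2 show separate groups, and St14 and Cutc show 1 Sham array far from the other.

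At some probes the signal was well above background in one group only, and the change is then a bound. Car3, a carbonic anhydrase best known from muscle and fat, was above background on both Sham arrays, at -1.83 and -1.53, and on 0 of 3 Naïve arrays, at least 20.7-fold higher (adjusted p = 0.00654). Cd3e, a chain of the T cell receptor complex, read -2.76 and -2.33 in Sham rats and was not above background in Naïve rats, at least 11.3-fold higher (adjusted p = 0.0172), and its mean level in TBI rats was -3.42. Bco2, a carotenoid-cleaving enzyme, was at least 6.28-fold higher (adjusted p = 0.0338), but it read -0.69 on Sham 1 and -6.10 on Sham 2, and without Sham 1 the difference was 1.51 (adjusted p = 0.213). In the other direction Vegfb, a growth factor of blood vessels, read -1.23, -0.99 and -1.52 in Naïve rats and was not above background in Sham rats, at least 33.6-fold lower (adjusted p = 0.0122). Vegfb levels followed the number series on all 16 arrays, and so did those of A_64_P044578, which has no symbol here and was at least 28.0-fold lower (adjusted p = 0.0111). A_64_P154352, also without a symbol, was at least 8.97-fold lower (adjusted p = 0.00557). Car3, A_64_P044578 and A_64_P154352 lost their calls without Sham 2, and Cd3e and Vegfb without either Sham array. The spread in these fits is that of all groups, and Vegfb read -1.3, -1.35 and -7.54 in the TBI+PMI-006 group. On the 5 Naïve and Sham arrays alone the adjusted p in limma was 0.0062 for Vegfb and 0.035 for A_64_P044578.

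With the number series as a block the sizes of these differences parted, although 0 were called. Of the 30 probes named by size so far, 17 had a difference within 1.5 times of the one without the block, and 6 fell to under 33.3% of it. The log2 difference was 2.83 (SE 0.56) for Canx, 2.29 (SE 0.43) for Ucp2, 2.51 (SE 0.67) for Mrps10 and -2.42 (SE 0.59) for Tnik, beside 3.01, 2.43, 2.56 and -2.34 without it. In contrast it was 0.50 for Tceal3 and -0.39 for C11h21orf91, beside 2.55 and -1.99. The block takes the series offset from the TBI+PMI-006 arrays alone, which were scanned in another session. Canx read -1.70 and -1.36 there in series 1 and -1.35 in series 2, all far above its Naïve levels. Whether the offset was the same in both sessions was not tested, so a kept size cannot tell the surgery from the series.

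Gene lists were then read by their counts and medians, beside 7.37% of genes called and a median of 0.08 over all genes. Of all genes 56.7% lay above 0, and after quantile normalization 6684 of 13913 did. A median is on the log2 scale. After quantile normalization the median of all genes was -0.02, and the medians of the stress axis, interferon, cholesterol, adenylyl cyclase, CA2 and CA3 and endothelial lists, from 0.04 to 0.17 here, were from -0.06 to -0.01 there. There 739 genes were called instead of 1025. The count fell to 0 in the NRF2, Notch, NMDA, HCN and tandem-pore channel, dentate gyrus, leukocyte and microglia lists, and to 1 in the neuron, oligodendrocyte, CA1, ependymal, subiculum and cortex, proliferation and reactive astrocyte lists.

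With the number series as a block, 0 genes were called in any list, but the medians moved. The median of all genes was 0.35 there. That of the choroid plexus list was 4.25 instead of 1.46, of the reactive astrocyte list 1.54 instead of 0.52, of the immediate early genes 1.46 instead of 0.14, of the glucocorticoid-induced genes 1.25 instead of 0.25 and of the cytokine list 0.89 instead of -0.02. These lists thus lay further above 0 with the block than without it. The block sets TBI+PMI-006 1 and 2, of series 1, against TBI+PMI-006 3, of series 2, and TBI+PMI-006 1 stood apart in some of them. Its summed choroid plexus level was 181, beside 10.6 and 2.68 on the other arrays of that group. Arc read 3.05 on it, beside -0.40 and -0.79. What part that array has in these shifts was not tested.

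Genes of the hormonal and neuronal response to surgery did not pass the test. Of 18 glucocorticoid-induced genes 0 were called, with a median of 0.25. Fkbp5, a chaperone that glucocorticoids induce strongly, read -2.13, -1.36 and -1.22 in Naïve rats and -1.11 and -1.21 in Sham rats, with a difference of 0.41 (adjusted p = 0.586). Tsc22d3, another such target, differed by -0.22 and the metallothionein Mt2A by 0.59 (adjusted p = 0.591 and 0.432). Of 10 receptors and peptides of the stress axis 0 were called (median 0.17), with Fkbp4 at 0.52 and Hsd11b1, which regenerates active corticosterone, at -0.14. Of 28 immediate early genes, which neuronal firing switches on, 0 were called (median 0.14). Arc, the best known of them at the synapse, read 0.82, -0.34 and -0.25 in Naïve rats and 1.02 and 1.36 in Sham rats, a difference of 1.11 with a standard error of 1.29 (adjusted p = 0.68). Dusp6 differed by 0.10. Of 28 hypoxia and glycolysis genes 0 were called (median -0.08), with Gapdh at -0.23 and Aldoc at -0.27. The standard error of Arc takes in the spread of all groups. Arc read 3.05 on TBI+PMI-006 1 and 4.57 on TBI+JM6 3, beside -0.79 to 0.05 on the other arrays of those groups. With that standard error a 2-fold change was not detectable at Arc. The Naïve and Sham values of Arc did not overlap, and limma on those 5 arrays alone gave an adjusted p of 0.218.

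Few genes of injury passed the test. Of 30 cytokines, chemokines and acute injury genes 1 was called (3.33%) and the median was -0.02. That gene was Il1a, the cytokine interleukin-1 alpha, above background in Naïve rats only and at least 2.56-fold lower in Sham rats (adjusted p = 0.04), a call lost whichever array was left out. Lcn2, a secreted protein of reactive astrocytes, differed by -0.01 between Sham and Naïve rats, and its mean log2 level was 3.43 in TBI rats beside -5.04, -2.75 and -3.94 in Naïve and -3.91 and -3.94 in Sham rats. Of 23 interferon-stimulated genes 1 was called (4.35%, median 0.12), the transcription factor Irf9, higher by 0.91 (adjusted p = 0.0413), a call that was also lost whichever array was left out.

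Among astrocyte genes Gfap rose. Of 23 reactive astrocyte genes 2 were higher (8.70%), 19 lay above 0 (82.6%, beside 56.7% of all genes) and the median was 0.52. After quantile normalization 14 of them lay above 0 and the median was 0.37. Gfap (chr10:92060835-92060894) read -0.66, -0.57 and -0.66 in Naïve rats and 1.97 and 0.80 in Sham rats. Both Sham arrays exceeded all Naïve arrays by more than 1 log2 unit, and the rise was 4.04-fold (SE 0.36 on the log2 scale, adjusted p = 0.00771). That log2 difference of 2.02 was 1.07 (SE 0.53) with the number series as a block. Within the TBI+PMI-006 group Gfap read 3.38 and 3.80 in series 1 and 4.53 in series 2. Its mean level was 1.90 in TBI rats. Without Sham 1 the difference was 1.43 (adjusted p = 0.0675). Clcf1, a cytokine of the interleukin-6 family, was above background in Sham rats only and at least 3.11-fold higher (adjusted p = 0.0364), and its call held only without Naïve 2. Of 13 general astrocyte markers Gfap alone was called, 3 lay above 0 and the median was -0.12.

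Subunits of the channels on which isoflurane acts changed in both directions. Of 14 GABA-A receptor subunits 2 were higher and 1 was lower (21.4%, median 0.55). Gabra5, an alpha subunit abundant outside synapses of the hippocampus, read -0.90, -0.31 and -0.41 against 0.73 in each Sham rat, a rise of 1.27 (adjusted p = 0.0121). Gabrb1, a beta subunit, went the other way, from 2.16 and 2.12 on Naïve 2 and 3, the value of Naïve 1 being dropped, to 0.83 and 1.06, a difference of -1.2 (adjusted p = 0.00858). In both the groups did not overlap. Gabra5 lost its call without either Sham array and Gabrb1 without Sham 1. Of 11 tandem-pore potassium and HCN channel genes 1 was called (9.09%, median -0.39), Hcn2, a pacemaker channel opened by hyperpolarisation, higher by 1.56 (adjusted p = 0.0338).

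Of 6 NMDA receptor subunits 1 was higher (16.7%, median 0.79), the obligatory subunit Grin1, by 1.19 and 1.92 at its 2 probes. The brighter probe read -3.80, -4.13 and -3.82 in Naïve rats and -2.99 and -2.46 in Sham rats (adjusted p = 0.0223). Of 8 AMPA and kainate receptor subunits 1 was lower (12.5%, median -0.12), Gria4, with 0.10, 0.09 and 0.02 in Naïve rats and -1.64 and -0.55 in Sham rats (adjusted p = 0.0457). That difference was -1.17, and -0.62 without Sham 1, where the call was lost. The calls of Hcn2, Grin1 and Gria4 were each lost without 3 or 4 of the single arrays.

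Of 25 genes of synaptic vesicle release 6 were called, all higher (24.0%, median 0.23), and 2 after quantile normalization. Slc17a7, which loads glutamate into vesicles (chr1:95649107-95649166), read -1.42, -1.94 and -1.64 in Naïve rats and -0.33 and -0.15 in Sham rats, 2.69-fold higher (adjusted p = 0.0235). Rab3a, a small GTPase on vesicles, read 0.59, 0.65 and 0.47 against 1.69 and 1.55, a rise of 1.05 (adjusted p = 0.0172). The calcium sensor Syt1 rose by 1.36 (adjusted p = 0.0478) and Syn1, which tethers vesicles, by 1.32 (adjusted p = 0.0467). Syt7 and Syn3, relatives of these, were above background in Sham rats only, at least 5.39-fold and 1.43-fold higher (adjusted p = 0.00979 and 0.0256). Of 15 neuronal markers 3 were higher (20.0%, median 0.29), Slc17a7, Syt1 and Thy1, a neuronal surface protein, by 1.10 with Sham 2 dropped (adjusted p = 0.0232). The summed level of the neuronal markers, in units of each array's 75th percentile, was 41.8 to 49.5 in Naïve rats and 51.3 to 57.5 in Sham rats. Whether more RNA of neurons or more message per neuron lay behind these levels cannot be told apart in whole tissue, here or for any cell type that follows. Leaving out either Sham array ended the calls of Slc17a7, Rab3a, Syt1, Syn1, Syt7 and Syn3.

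Single signalling genes were called in both directions. Of 7 adenylyl cyclases 3 were called (42.9%, median 0.04), Adcy9 and Adcy8 lower and Adcy1 higher. Adcy8, a calcium-stimulated cyclase, read -1.74, -1.83 and -2.22 in Naïve rats and -3.40 and -2.95 in Sham rats, a difference of -1.25 (adjusted p = 0.0285). Adcy1, of the same calcium-stimulated kind, rose by 2.86 (adjusted p = 0.0291), with 1 of 3 Naïve arrays above background, and both calls were lost without either Sham array. Of 12 genes of the neurotrophins, their receptors and CREB 1 was lower (8.33%, median 0.44), Ntrk2, the receptor of BDNF, by -1.2 (adjusted p = 0.0192) with Naïve 1 dropped. All 4 probes of Ntrk2 were lower, by -2.72 to -0.51, and 3 of them were called. The call of the brightest was lost without Naïve 3 or Sham 1. Of 20 genes of the Notch pathway 2 were higher (10%, median -0.17), the transcription factor Hey1 by 1.48 and Rfng, which modifies the Notch receptor, by 0.61 (adjusted p = 0.0207 and 0.0384), and without either Sham array both calls were lost.

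Clock genes, which time daily rhythms, were called in 4 of 19 cases (21.1%, median 0.14), and in 2, Bhlhe41 and Rora, after quantile normalization. Bhlhe41, a repressor of the clock, was above background in Sham rats only, at -5.01 and -5.41, and at least 1.78-fold higher (adjusted p = 0.00185). Hlf, an output transcription factor, was at least 1.66-fold higher (adjusted p = 0.0193), also above background in Sham rats only. Nr1d2, a nuclear receptor of the clock, read -5.17, -4.97 and -5.27 in Naïve rats and -3.82 and -3.95 in Sham rats, a rise of 1.25 (adjusted p = 0.0467). The fourth, Rora, was lower (adjusted p = 0.0314) but not above background in either group. Bhlhe41 was called whichever array was left out, Hlf and Rora without 1 of the 5 and Nr1d2 without none. The hour of tissue collection is not given in the sources used here.

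Lists of metabolism and of stress in cells had few calls. Of 26 heat shock proteins and co-chaperones 1 was higher (3.85%, median 0.30), Dnajb4 by 0.98 (adjusted p = 0.0248). The call of Dnajb4 held only without Naïve 2. Of 18 NRF2 antioxidant genes 2 were higher (11.1%, median 0.25), Nqo1, a quinone reductase, by 0.77 and Gsr, which regenerates glutathione, by 0.74 (adjusted p = 0.0207 and 0.0445). Nqo1 lost its call without Naïve 1, Naïve 3 or Sham 2 and Gsr without any array but Naïve 2, and 0 of the list were called after quantile normalization. Of 23 cholesterol genes 1 was higher (4.35%, median 0.12). This was Sc5d, an enzyme late in cholesterol synthesis (chr8:45231028-45231087), which read -1.78, -1.89 and -1.89 in Naïve rats and -0.13 and 0.44 in Sham rats, 4.02-fold higher (adjusted p = 0.00185) and called whichever array was left out. Of 11 carbonic anhydrases 1 was called (9.09%, median 0.47), Car3. Of 24 proliferation genes 2 were higher (8.33%, median 0.19). Aurkb, a mitotic kinase, was at least 3.37-fold higher (adjusted p = 0.00829), a call lost without Sham 2. Mcm5, a replication helicase subunit, rose by 1.74 (adjusted p = 0.0493) through Sham 2 at -3.45. That was the only array of the 5 above background there, and without it the difference was 0.78. Of 22 collagens, laminins and matrix genes 1 was lower (4.55%, median -0.44), Col5a1.

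Genes of large protein complexes had few calls. Of 83 cytosolic ribosomal protein genes 0 were called, and their median was -0.13. Rps29 differed by -0.27 and Rpl37a by 0.10. Of 77 subunits of the mitochondrial respiratory chain 1 was lower (1.30%, median 0.00), Uqcrq of complex III, at least 2.15-fold (adjusted p = 0.00948). The call of Uqcrq was lost without Sham 2. Of 38 proteasome subunits 1 was higher (2.63%, median 0.19), Psmd13 by 1.16, with Naïve 1 and Sham 2 dropped. That call rests on 1 Sham array and was lost without Naïve 2 or Naïve 3.

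**Figure D4:**
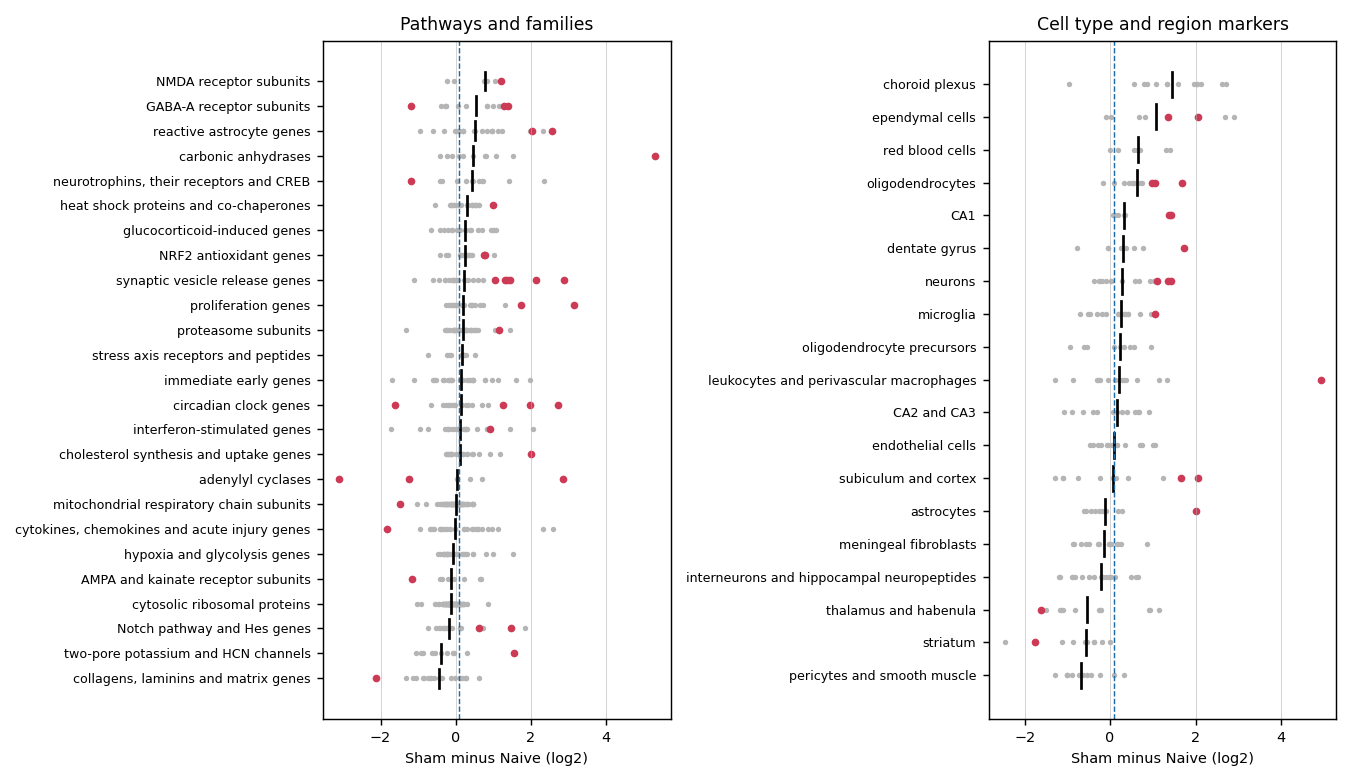
Sham minus Naïve on the log2 scale (horizontal axis) for the tested genes of each list, 1 point a gene, with called genes in red, the median of the list as a black bar and the median of all genes, 0.08, as a dashed line. Called genes lie on both sides for the GABA-A receptor subunits and the adenylyl cyclases, while choroid plexus genes are shifted to the right with 0 called.

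Choroid plexus signal differed more between rats of a group than between the groups. Ttr read 1.55, 6.24 and 1.2 in Naïve rats and 6.90 and 2.25 in Sham rats. Naïve 2 and Sham 1 stood some 4 log2 units above the other 3 arrays, so the groups overlapped, and the difference of 1.58 (SE 2.45, adjusted p = 0.771) turned to -0.75 without Sham 1. Sostdc1 and Folr1, also made by the plexus, read 0.01 and -0.73 on Naïve 2 and 1.11 and 0.24 on Sham 1, against -7.00 to -3.30 on the other arrays. Of 14 choroid plexus genes 0 were called, 13 lay above 0 and the median was 1.46. Their summed level was 5.52, 88.2 and 4.43 in Naïve rats and 136 and 8.51 in Sham rats. When Naïve 2 and Sham 1 were both left out, 497 probes were called, and 7 of the 30 probes named by size in the preceding text remained called.

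Of 8 ependymal markers, genes of the ciliated lining of the ventricle, 2 were higher (25.0%, median 1.08). Foxj1, the regulator of motile cilia, read -3.52, -2.19 and -2.95 in Naïve rats and -0.81 and -0.86 in Sham rats, 4.14-fold higher (adjusted p = 0.00654) and called whichever array was left out. Tekt1, a filament protein of cilia, rose by 1.35 (adjusted p = 0.0405), a call lost without either Sham array. The summed level of the list was 0.503, 1.54 and 0.771 in Naïve rats and 2.88 and 2.30 in Sham rats, so the groups did not overlap. Of 14 meningeal fibroblast genes 0 were called (median -0.15), with Mgp at 0.19 and Igf2 at 0.87, and their sum was highest on Naïve 2, at 24.8 beside 3.83 to 10 on the other arrays.

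Among markers of neighbouring brain regions a striatal gene fell. Of 10 striatal genes 1 was lower (10%), 0 lay above 0 and the median was -0.56. Pde10a, the phosphodiesterase of striatal neurons (chr1:46392997-46393056), read 0.40, 0.46 and 0.48 in Naïve rats and -1.40 and -1.25 in Sham rats. It was lower by 3.42-fold (log2 difference -1.77, SE 0.23, adjusted p = 0.0023), at both of its probes and whichever array was left out, and its mean in TBI rats was -0.37. The sum of the striatal genes was 3.87 to 4.63 in Naïve rats and 2.71 to 2.83 in Sham rats. Of 12 genes of thalamus and habenula Rora alone was called (8.33%, median -0.54). Of 12 genes of subiculum and cortex 2 were higher (16.7%, median 0.07). Nts, the peptide neurotensin, read -0.05, -1.0 and -0.74 in Naïve rats, 1.31 and 1.63 in Sham rats and 1.07 on average in TBI rats. It was 4.19-fold higher in Sham than Naïve rats (adjusted p = 0.00643), a call lost without Sham 2. Lamp5, an endosomal protein of some interneurons and cortical cells, rose by 1.65 (adjusted p = 0.0367), but read 0.69 on Sham 1 and -1.38 on Sham 2, and without Sham 1 the difference was 0.62 (adjusted p = 0.279).

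Within the hippocampus 2 of 7 genes of CA1 were higher (28.6%, median 0.32). Wfs1, a protein of the endoplasmic reticulum that marks CA1 pyramidal cells, read 0.42, -0.64 and -0.16 in Naïve rats and 1.14 and 1.45 in Sham rats (difference 1.43, adjusted p = 0.0439), and the transcription factor Pou3f1 rose by 1.37 (adjusted p = 0.0244). The sum of the CA1 genes was 13.3 to 15.7 in Naïve rats and 18.6 to 20.1 in Sham rats. Of 9 dentate gyrus genes 1 was higher (11.1%, median 0.31), Stxbp6, which binds the release machinery, by 1.74 (adjusted p = 0.0202) with 1 of 3 Naïve arrays above background. Of 13 genes of CA2 and CA3 0 were called (median 0.16), with Pcp4 at -0.41 and Bok at 0.67, Sham 1 being dropped for Bok. The calls of Wfs1, Pou3f1 and Stxbp6 were lost without either Sham array.

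Of 14 oligodendrocyte genes 3 were higher (21.4%), 13 lay above 0 and the median was 0.63. Gjb1, a gap junction protein of myelinating cells, read -2.55, -2.84 and -3.28 in Naïve rats and -1.34 and -1.08 in Sham rats, a rise of 1.68 (adjusted p = 0.00627) that was lost only without Sham 2. Myrf, the factor that drives myelin genes, rose by 1.05 and Cldn11, a tight junction protein of myelin, by 0.99 (adjusted p = 0.0216 and 0.0455). Cldn11 lost its call whichever array was left out, Myrf kept it only without Naïve 1, and after quantile normalization 1 gene of the list was called. Of 9 genes of oligodendrocyte precursors 0 were called (median 0.24), with Olig1 at 0.33 and Sox10 at 0.46. The sum of the oligodendrocyte genes overlapped, at 95.6 to 129 in Naïve rats and 123 to 130 in Sham rats.

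Of 16 microglial genes 1 was higher (6.25%, median 0.26), P2ry12, a purine receptor of resting microglia, which read -1.17, -1.16 and -1.18 in Naïve rats and -0.25 and 0.00 in Sham rats (difference 1.05, adjusted p = 0.0372), a call lost whichever array was left out. Of 15 genes of leukocytes and perivascular macrophages Cd3e alone was called (6.67%, median 0.20). The defining genes Mrc1, Cd4, Cd8a, Ms4a1 and Ccr2 were not above background on any of the 5 arrays, and the sum of the list was 2.17 to 2.73 in Naïve rats and 2.0 to 2.33 in Sham rats. Of 17 interneuron and neuropeptide genes 0 were called (median -0.21), with Cck at -0.65 and Pvalb at -0.10. Of 14 endothelial genes 0 were called (median 0.10), with the junction protein Cldn5 at 1.04 (adjusted p = 0.0704) and Slco1a4 at 0.04. Of 12 genes of pericytes and smooth muscle 0 were called (median -0.69), 2 lay above 0, Tagln differed by 0.08 and Vtn by -1.02. Of 8 red blood cell genes 0 were called (median 0.65), with Hba-a1 at 0.19 and Hbb-b1 at 0.68, and their sum was highest on Naïve 2, at 177 beside 51.9 to 130 on the other arrays. The part that these cell types and regions have in the differences of other genes was not tested.

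**Figure D5:**
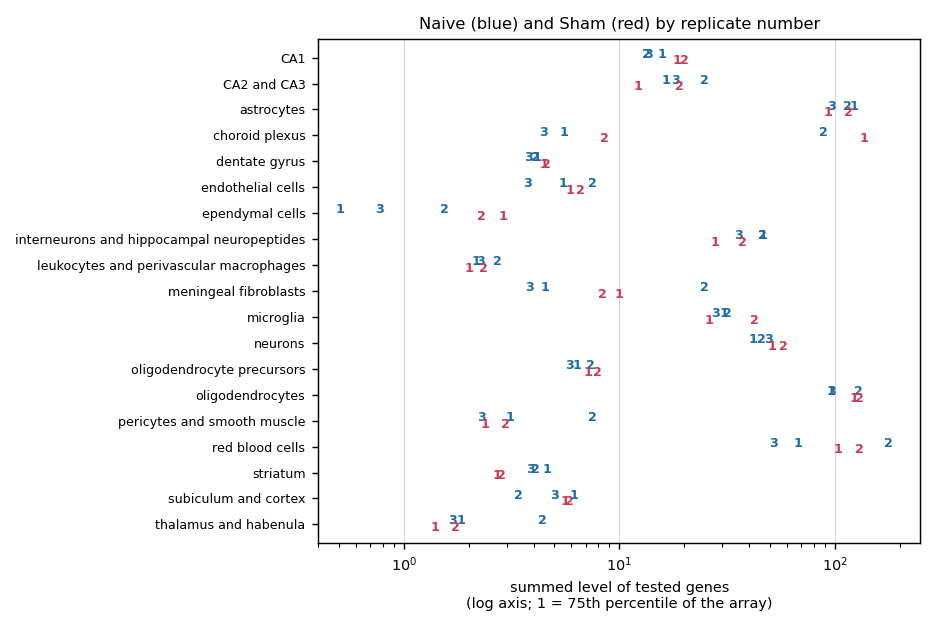
Summed level of the tested genes of each marker list on each array (horizontal log axis, 1 is the 75th percentile of the array), with blue digits for Naïve and red digits for Sham replicates. Naïve 2 and Sham 1 stand out for choroid plexus, at 88.2 and 136, while the groups lie apart for ependymal, striatal, neuronal, dentate and CA1 genes.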

How the data were processed

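RNA of the hippocampus of 1 rat was hybridised to each single-colour rat array. Per the file headers, the deposited intensity of a spot was background subtracted and detrended within its array by Agilent Feature Extraction, and not normalized between arrays. The authors also deposited a value table. Its linear values are a ratio of signal over each array's 75th percentile, brought to a common distribution (0.02 to 353, median 0.14), and served as an alternative. The labels gave the groups.

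Control spots and spots marked as outliers were left out, and spots of a probe were averaged. A probe counted as well above background where at least 50% of its spots did. Signals were scaled by the 75th percentile of such probes on their array and put on a log2 scale. Tested were 22827 of 30367 probes, those above background throughout 1 or more of the 6 groups, in a single limma model of all 16 arrays without covariates. Where a group had none of its arrays above background, the change is given as a bound. Symbols came by name from a RefSeq table for 20768 probes (68.4%), whose positions were not used. Probe positions and sequences are those of the array design on rn4, and exons or UTRs were not assigned. A gene was read by its brightest probe. The labels name no litter, cage or batch of rats, and p-values measure the spread between arrays of single rats. Slides and scan session come from the file headers. The number of probes above background tells how many an array detected. The number of arrays limits the precision of a difference.

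The comparison, lists and rule for named genes were chosen with earlier results of these data known. The rule took the 12 largest rises and falls among genes called, above background on all 5 arrays and without overlap, the 3 largest bounds each way, the called genes of each list (up to 4, or the 2 brightest where none was called), and Ttr. Rpl19 and similar probes, Fkbp5, Lcn2, Sostdc1, Folr1, Syn1 and Rab3a were added after their values were seen. A few named genes are left out of the text, though the counts include them. Alternatives were normexp background correction with an offset of 50, other scalings and filters, the deposited ratios, the methods' t-test and Welch's test, fewer groups, slide and replicate blocks, array weights, a GC trend and leaving out single arrays. The number series as a block and leaving out both Ttr-rich arrays were chosen after seeing the data. Scripts were tested on simulated data with the spread of each scan session, where the fit of all arrays missed part of the changed probes and made more false calls than its threshold allows, and the fit of the 5 arrays alone found none of the changes. R 4.3.3 with limma 3.58.1 was used.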

Additional observations from a re-analysis of the deposited data

How the results depend on the processing

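The count of probes called stayed within 1.5 times 1842 with no filter (1267), quantile normalization (1313), a 75th percentile of all probes (2279), both stricter filters (1809 and 2333), the authors' matrix (1471), the slide as a random block (1881), array weights (1757), a GC trend removed (2400, where the median of all probes moved from 0.06 to -0.11) and the replicate number as a block (1301). It moved further with normexp background correction (14), scaling to the E1A control spots (348), the methods' t-test (0) and Welch's test (0, with 2661 at an unadjusted p under 0.05), limma on the 5 arrays alone (303) or with the TBI arrays (325), the slide as a fixed block (15), slide 1 alone (6), the number series as a block (2, and 2 after quantile normalization) and without the Ttr-rich arrays (497). Without single arrays it was 480 to 1491: 624 without Sham 1, 480 without Sham 2, 1124 without Naïve 1 and 874 without Naïve 3. The cause was not tested, except that the smaller fits have fewer residual degrees of freedom. Among these smaller fits is the fixed slide block, made on the Naïve, Sham and TBI arrays only. Of the 30 probes named by size, 22 were called after quantile normalization, 24 with the replicate block, 17 in the 5 arrays alone, 4 with the slide as a block, 1 with normexp and 0 with the number series. Whether replicate numbers pair the rats could not be told. Deviations of equally numbered Naïve and Sham arrays from their group means correlated at -0.03 and -0.01. With 2 Sham arrays, however, the deviations of each mirror those of the other.

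Without each array in turn, Ttr ranged from -0.75 to 3.90, Sostdc1 from -1.48 to 5.56, A_64_P128938 from -0.46 to 0.10, Hsd11b1 from -0.45 to 0.16, Mgp from -0.33 to 0.94, Igf2 from -0.14 to 1.92, Slco1a4 from -0.19 to 0.23, Tagln from -0.36 to 0.83, Hba-a1 from -0.14 to 0.66 and Rpl37a from -0.24 to 0.44. With the number series as a block Hsd11b1 gave 0.38, Gapdh 0.19, Aldoc 0.20, Pvalb 0.15, Slco1a4 -0.58, Vtn 0.17, Pcp4 0.07, Rps29 0.06, Lcn2 0.64 and the Rpl19 probe A_64_P128938 0.19, and with quantile normalization added the Rpl19-ps25 probes gave -0.08 and -0.14, Tceal3 -0.54, Fkbp4 -0.03, Hsd11b1 0.05, Olig1 -0.19, Slco1a4 -0.94, the Tpt1 probe -0.09 and Lcn2 0.13. Without Sham 1 Ttr gave -0.75, Sostdc1 -1.48, A_64_P128938 0.10, Igf2 -0.14 and Pvalb 0.13, and without Sham 2 Hsd11b1 0.16, Slco1a4 -0.07, Tagln -0.10, Hba-a1 0.00 and Rpl37a -0.24. Without Naïve 1 Dusp6 gave -0.05, Mgp -0.03, Pvalb 0.03 and Tagln -0.24, and without Naïve 3 Mgp -0.33, Slco1a4 -0.19, Tagln -0.36 and Hba-a1 -0.14, values that the slide block and slide 1 alone repeated. Dusp6 gave -0.02, Slco1a4 -0.08, Tagln -0.04 and Rpl37a -0.01 with the 75th percentile of all probes, and -0.10, -0.13, -0.13 and -0.10 with the GC trend removed, where Mgp gave -0.08 and Hba-a1 -0.02. Slco1a4 and Tagln gave -0.04 and -0.06 after quantile normalization and -0.04 and -0.07 in the authors' matrix, Slco1a4 -0.16 with the replicate block, Rpl37a -0.05 with normexp, and Gapdh 0.02, Pvalb 0.14, A_64_P128938 0.13 and Lcn2 0.55 without the Ttr-rich arrays. Lcn2, at -0.01, gave 0.05 with scaling to the E1A spots, 0.12 with array weights and 0.57 without Naïve 2.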

Other observations

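A pair of neighbouring probes without a symbol here, A_64_P098807 and A_64_P076530 on rn4 (chr2:97815312-97815371 and chr2:97815979-97816038), was singled out after its values were seen, because it was called with the slide as a fixed block. A_64_P076530 read -1.44, -1.35 and -1.34 in Naïve rats and -5.93 and -5.75 in Sham rats, a difference of -4.46 (SE 0.44, adjusted p = 0.00185), and A_64_P098807 differed by -3.90 (SE 0.55, adjusted p = 0.00357). On the other arrays A_64_P076530 was high in the TBI and TBI+PMI-006 rats, from -1.82 to -0.94, and low in the TBI+E2 rats, at -4.61 and -4.22. The TBI+JM6 rats differed among themselves, at -2.03, -4.03 and -3.88. A probe of Tpt1, A_64_P033205, was also called with that block and rose by 2.51 (adjusted p = 0.0244, a call lost whichever array was left out), where the other 2 probes of Tpt1 differed by 0.04 and 0.40.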
